A study of Mus musculus with 7 samples.

Results

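The 31 genes described here serve inhibitory transmission in the brain. They cover the synthesis, vesicle loading and breakdown of GABA (gamma-aminobutyric acid), 12 subunits of GABA-A receptors, GABA-B receptors with their auxiliary KCTD proteins, scaffold and adhesion proteins of the inhibitory synapse, chloride transporters, genes of GABA neurons and glycine receptors. They were chosen by name: each symbol had to match exactly a probe set with a single gene symbol, and where a gene had several such probe sets the brightest on average was taken. All 31 were measured, of 22180 named genes in all.

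The study asked which transcripts are under translation in neurons of the mouse medial prefrontal cortex (mPFC) that were active during a rewarding or an aversive experience. All mice carried a Cre-dependent GFP tag on the ribosome and a transgene that expresses Cre from Arc, a gene that neurons switch on with activity, and tamoxifen, which was present during the experience, opened the labelling window. The cocaine group holds 4 arrays (numbered 4, 5, 6 and 7 in their titles) of cells activated by cocaine at 15 mg/kg on 2 days. The shock group holds 3 arrays (numbered 4, 5 and 6) of cells activated by 20 shocks of 0.5 mA lasting 2 s, on 2 days. In both groups an anti-GFP antibody pulled down the tagged ribosomes, and the RNA bound to them was measured on one-colour Affymetrix arrays. Labelling therefore follows Arc activity and not a chosen cell class. The age and strain of the mice, and the number of mice behind an array, were not stated in the labels, so each p-value rests on the variation among these arrays alone, part of which may be technical.

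GABA is the main inhibitory transmitter of the cortex. It is made from glutamate by glutamate decarboxylases, opens chloride channels of the GABA-A type for fast inhibition, and acts on G protein-coupled GABA-B receptors for slow inhibition. Most GABA neurons of the cortex are local interneurons, while its projection neurons carry most of the receptors and depend on low internal chloride for GABA to inhibit them.

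The values are log2 expression values, and each array holds 1 value per probe set. The lower quartile was 4.08 to 4.15, the median 5.44 to 5.47 and the upper quartile 7.10 to 7.16 on the 7 arrays, and with arrays this alike a change in total RNA would not be seen. Probe sets differ in how brightly they report, so levels were compared between arrays within a gene and never between genes. A gene is called dim where its mean lay under 5.44, the 95th percentile of olfactory and vomeronasal receptor genes, and 30 of the 31 genes lay above it. The 9 measured excitatory neuron markers, which include Slc17a7, Tbr1 and Camk2a, all lay above it too, and so did all 10 astrocyte and all 10 vascular markers. Of the 18 measured inhibitory neuron markers 2 were dim, Pvalb (mean 5.29) and Nkx2-1 (mean 5.31). Cocaine array 6 stood apart from the rest, with a mean correlation to the others of 0.993 over all genes, against 0.996 on the 6 remaining arrays. In such bulk precipitates fewer cells of a type and less RNA per cell cannot be told apart. None of the 7 arrays holds RNA from before the pull-down, so enrichment for RNA of the labelled cells was not tested.

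None of the 31 genes differed between the groups at an adjusted p under 0.05 (limma over all 22180 genes with Benjamini-Hochberg adjustment, smallest adjusted p among them 0.938). Over all genes that share was 0% as well. At an unadjusted p under 0.05, limma picked 1 of the 31, the glycine receptor gene Glra2, beside 3.1% of all genes. The groups did not overlap for 1 of the 31, the chloride transporter gene Slc12a5, beside 2.37% of all genes. Both shares are near the background, so neither count sets these genes apart.

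The differences were small for nearly all of the genes. The mean was lower in the cocaine group for 18 of them and higher for 13, against 49.1% lower over all genes. Their median difference, cocaine minus shock, was -0.031 on the log2 scale (0.0016 over all genes), which became -0.032 on leaving out cocaine array 6 and -0.0072 on leaving out shock array 6. For 23 genes the difference was under 0.1 in size. The 95% interval of the difference, from limma and gene by gene, lay within 1.5-fold in either direction for all 31 genes and within 1.2-fold for 22. These intervals are not adjusted for the number of genes, and a p that misses the threshold does not show that the groups are alike.

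**Figure D1:**
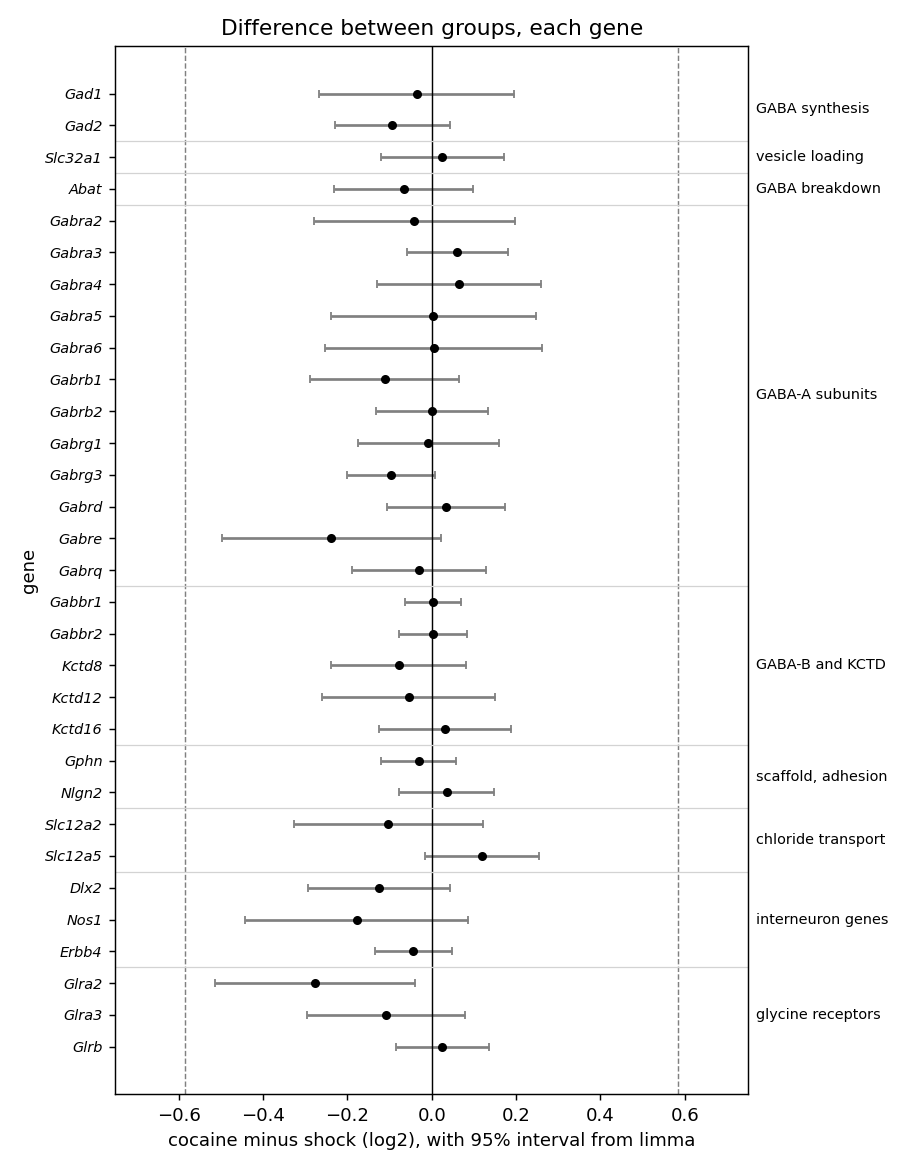
Difference between the cocaine and shock groups for each of the 31 genes, on the log2 scale (x axis); points are limma estimates, bars are 95% intervals, and dashed lines mark 1.5-fold in either direction. All 31 intervals lie between the dashed lines, and the interval of Glra2 alone leaves out 0.

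Gad1 and Gad2 encode the 2 glutamate decarboxylases that make GABA, and both had means slightly lower in the cocaine group. Gad1 (probe set 17371636) had values of 6.58, 6.99, 6.84 and 6.90 on cocaine arrays 4 to 7 and 6.83, 6.84 and 6.92 on the shock arrays. The cocaine arrays lay on both sides of the shock arrays, and array 4 alone lay well under them. The group means were 6.83 ± 0.18 (SD, n = 4) and 6.86 ± 0.05 (SD, n = 3), and the difference was -0.035 (SE 0.097), which was 0.048 without cocaine array 4. Gad2 (probe set 17367510) had values of 10.47, 10.56, 10.44 and 10.40 on the cocaine arrays and 10.47, 10.57 and 10.64 on the shock arrays. Its groups overlapped, with cocaine array 5 at the level of shock array 5, and the difference was -0.093 (SE 0.057, limma unadjusted p = 0.148), or -0.053 without shock array 6.

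Slc32a1, the vesicular transporter that loads GABA and glycine into synaptic vesicles, had nearly the same mean in both groups. Its values were 8.66, 8.66, 8.83 and 8.66 on the cocaine arrays and 8.61, 8.66 and 8.76 on the shock arrays, a difference of 0.025 (SE 0.061). The highest value was on cocaine array 6, and without this array the difference was -0.019. A second, dimmer probe set of Slc32a1 differed by -0.046, so the direction of this gene is not settled. Abat, the transaminase that breaks GABA down, ranged from 10.45 to 10.66 on the cocaine arrays and from 10.50 to 10.71 on the shock arrays, with a difference of -0.067 for the kept probe set and -0.061 for the other. The former was -0.017 on leaving out shock array 5 and -0.12 on leaving out shock array 6.

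The subunits of GABA-A receptors, the pentameric chloride channels of fast inhibition, were evenly divided, with 6 of 12 higher and 6 lower in the cocaine group. Their median difference was -0.0032, and the smallest unadjusted p among them was 0.0658 (limma). The dim gene Gabra6 counts among the higher ones, by 0.0045. Leaving out 1 array turned the sign for 6 of the 12, so the even split rests partly on unsettled signs. The alpha subunits set much of a receptor's pharmacology and location. Gabra3 differed by 0.061, Gabra4 by 0.064, Gabra5 by 0.0036 and Gabra2 by -0.041. Single arrays moved these values: Gabra4 differed by 0.0045 on leaving out shock array 5 and by 0.14 on leaving out shock array 4, and Gabra3 by 0.025 on leaving out cocaine array 7. In Gabra2 and Gabra5 the spread between arrays of a group was several times the difference between groups. Gabra2 ranged from 9.95 to 10.34 on the shock arrays alone and Gabra5 from 10.18 to 10.50, and both were highest there on shock array 4.

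Gabra4 and Gabra5 had similar profiles over the arrays. Gabra5 had values of 10.56, 10.24, 10.36 and 10.33 on the cocaine arrays and 10.50, 10.18 and 10.43 on the shock arrays. Gabra4 had values of 10.65, 10.42, 10.52 and 10.45 on the cocaine arrays and 10.59, 10.33 and 10.42 on the shock arrays. Both genes were highest on cocaine array 4 and next on shock array 4, and lowest on shock array 5, so their variation ran across the groups rather than between them. These profiles were picked out after the values were seen. Gabra6, whose subunit is best known from granule cells of the cerebellum, was the 1 dim gene of the 31, with a mean of 2.51 over the arrays.

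Among the beta and gamma subunits, which complete the channel and carry sites for scaffold binding and drugs, Gabrb1 and Gabrg3 had the largest differences. Gabrg3 had values of 9.04, 9.04, 8.96 and 8.94 on the cocaine arrays and 9.10, 9.04 and 9.14 on the shock arrays. Cocaine arrays 4 and 5 and shock array 5 shared an identical value, and the difference was -0.096 (SE 0.044, limma unadjusted p = 0.0658, adjusted p = 0.938). Gabrb1 had values of 10.58, 10.60, 10.34 and 10.45 on the cocaine arrays and 10.67, 10.63 and 10.51 on the shock arrays. Cocaine arrays 6 and 7 lay under all shock arrays and arrays 4 and 5 did not, and the difference of -0.11 was -0.062 without cocaine array 6. Gabrb2, which pairs with alpha subunits in the most widespread cortical receptor, differed by 0.0011 and Gabrg1 by -0.0075.

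The remaining subunits belong to less common receptors. Gabre, the epsilon subunit, had the largest difference of the 12 subunits. Its values were 6.13, 6.42, 6.43 and 6.33 on the cocaine arrays and 6.52, 6.40 and 6.77 on the shock arrays. Cocaine array 4 was the lowest, shock array 6 was the highest, and the groups overlapped at shock array 5. The means were 6.33 ± 0.14 (SD, n = 4) and 6.56 ± 0.19 (SD, n = 3), and the difference of -0.24 (SE 0.11, limma unadjusted p = 0.0674, adjusted p = 0.938) was -0.13 without shock array 6. Gabrd, the delta subunit of receptors outside the synapse, differed by 0.034 (0.0054 without cocaine array 4), and Gabrq, the theta subunit, by -0.029.

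Many GABA-A subunit genes lie side by side in the genome, and the order was read from the RefSeq gene table of the GRCm38.p6 assembly. Of the 7 neighbouring pairs, 2 had differences of the same sign (Gabrg1 with Gabra2, and Gabra6 with Gabrb2). In the cluster of Gabrg1, Gabra2, Gabra4 and Gabrb1, which holds 1 further protein-coding gene (Cox7b2), the differences were -0.0075, -0.041, 0.064 and -0.11. Gabre, Gabra3 and Gabrq, with 1 further gene (Magea10) between the first pair, differed by -0.24, 0.061 and -0.029. Gabrg3 differed by -0.096 and its direct neighbour Gabra5 by 0.0036, and the direct neighbours Gabra6 and Gabrb2 by 0.0045 and 0.0011. No difference in these clusters passed the test, so the signs are given as values.

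**Figure D2:**
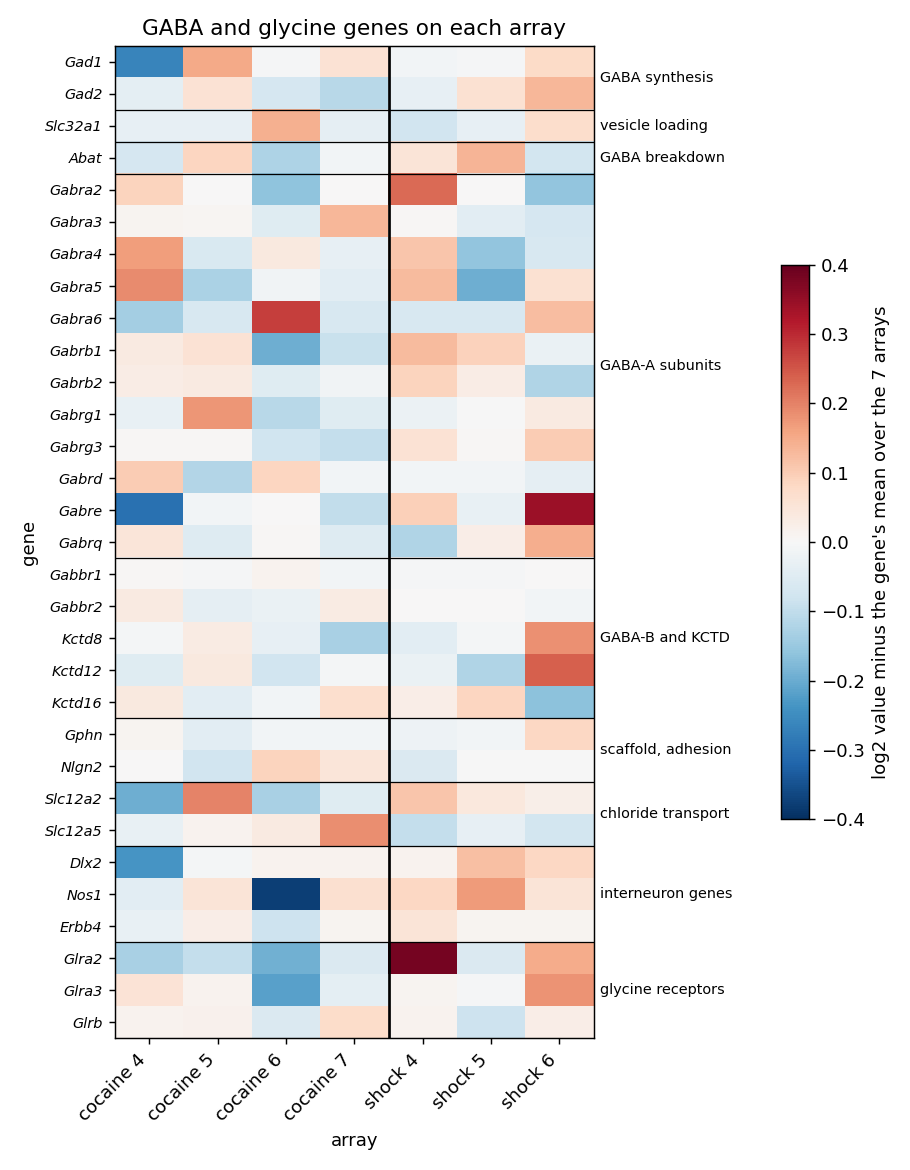
Log2 value of each gene (rows, by role) on each array (columns), centred on the mean of that gene; red is higher and blue lower, and the black vertical line parts the cocaine from the shock arrays. Single cells such as Nos1 on cocaine array 6, Glra2 on shock array 4 and Gabre on shock array 6 are the most coloured, and most roles hold both colours on each side of the line.

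The GABA-B receptor genes were the steadiest of the set. Gabbr1, the subunit that binds GABA, had values of 11.71, 11.71, 11.72 and 11.70 on the cocaine arrays and 11.71 on each shock array. Its difference was 0.0032 (SE 0.028), and its 95% interval reached from -0.064 to 0.070, the narrowest of the 31 genes. Gabbr2, the subunit that couples to G proteins, ranged from 11.93 to 12.01 on the cocaine arrays and from 11.96 to 11.97 on the shock arrays, a difference of 0.0032. These signals lie near the top of the measured range of 1.12 to 13.44. Whether such bright probe sets report changes in proportion was not tested.

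The KCTD proteins bind GABA-B receptors and shape how fast their responses set in and fade. Kctd12 ranged from 8.11 to 8.22 on the cocaine arrays, and had values of 8.16, 8.06 and 8.42 on the shock arrays. Its difference of -0.054 was 0.050 without shock array 6, so that array set its direction. Kctd8 differed by -0.079 (-0.0099 without shock array 6) and Kctd16 by 0.031 (-0.043 without shock array 6). The second probe sets of Kctd8 and Kctd12 differed by -0.047 and -0.074, but that of Kctd8 had a mean of 5.14, under the dim level of 5.44. The kept probe set of Kctd8 had a mean of 5.61, little above that level.

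Gephyrin (Gphn), which anchors glycine and GABA-A receptors beneath the inhibitory synapse, and neuroligin 2 (Nlgn2), the adhesion protein that recruits it, had close means in the 2 groups. Gphn (probe set 17276674) had values of 9.59, 9.54, 9.57 and 9.57 on the cocaine arrays and 9.56, 9.57 and 9.66 on the shock arrays. All but shock array 6 lay within a narrow band, and the difference of -0.031 (SE 0.038) was 0.0014 without that array. Nlgn2 ranged from 9.87 to 10.04 on the cocaine arrays and from 9.89 to 9.95 on the shock arrays, with a difference of 0.036 (SE 0.047), or 0.011 without cocaine array 6.

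The 2 chloride transporters set whether GABA inhibits a neuron. Slc12a5 is the neuronal exporter that keeps internal chloride low. Its probe set (17379623) had values of 10.42, 10.47, 10.49 and 10.64 on the cocaine arrays and 10.36, 10.42 and 10.38 on the shock arrays. Every cocaine array lay above every shock array, though cocaine array 4 (10.4248) was above shock array 5 (10.4208) in the third decimal only. The means were 10.51 ± 0.09 (SD, n = 4) and 10.39 ± 0.03 (SD, n = 3), and the difference of 0.12 (SE 0.057), a ratio of 1.09, did not pass (limma unadjusted p = 0.0744, adjusted p = 0.938). It was 0.074 without cocaine array 7, which had the highest value.

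Slc12a2 is the importer that raises internal chloride, and glial and vascular cells carry it as well as neurons. It had values of 8.08, 8.47, 8.14 and 8.22 on the cocaine arrays and 8.38, 8.31 and 8.29 on the shock arrays. The lowest 3 and the highest of all values were on cocaine arrays, so the groups overlapped through cocaine array 5. The difference was -0.10 (SE 0.094, limma unadjusted p = 0.313), with values of -0.18 and -0.052 on leaving out cocaine arrays 5 and 4.

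The 3 genes of GABA neurons and of their signalling had means lower in the cocaine group. Dlx2, a homeobox factor of the GABA neuron lineage, had values of 7.20, 7.43, 7.45 and 7.45 on the cocaine arrays and 7.45, 7.56 and 7.52 on the shock arrays. Cocaine array 4 lay far under the others, and the difference of -0.12 (SE 0.071) was -0.065 without it. Nos1, the neuronal nitric oxide synthase of a subset of interneurons, had values of 9.06, 9.15, 8.72 and 9.16 on the cocaine arrays and 9.19, 9.27 and 9.15 on the shock arrays. Cocaine array 6 was the lowest by a wide margin, and the difference of -0.18 (SE 0.11) was -0.078 without it. Erbb4, the neuregulin receptor found mainly on interneurons in cortex, ranged from 8.11 to 8.22 on the cocaine arrays and from 8.20 to 8.24 on the shock arrays, with a difference of -0.044 (SE 0.038), or -0.022 without cocaine array 6. None of the 3 passed even an unadjusted p of 0.05 (limma, 0.124, 0.156 and 0.294).

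Glycine receptors are chloride channels best known from spinal cord and brainstem, and the alpha subunit of Glra2 also occurs in forebrain. Glra2 (probe set 17546001) had values of 8.91, 8.95, 8.85 and 8.99 on the cocaine arrays and 9.43, 8.99 and 9.19 on the shock arrays. The cocaine arrays lay close together and 3 of 4 were under every shock array, while cocaine array 7 and shock array 5 had an identical value of 8.98775. The means were 8.93 ± 0.06 (SD, n = 4) and 9.20 ± 0.22 (SD, n = 3). The difference of -0.28 (SE 0.10) corresponds to a ratio of 0.826, with a 95% interval of -0.51 to -0.039. It had the smallest unadjusted p of the 31 genes but did not pass the adjustment (limma, unadjusted p = 0.0287, adjusted p = 0.938). The difference was -0.16 without shock array 4, which had the highest value, and -0.38 without shock array 5. The unadjusted p was over 0.05 in 5 of the 7 fits that left out an array (limma, 0.0524 to 0.0702), all but those without cocaine array 7 or shock array 5.

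The other glycine receptor genes did not share this profile. Glra3, a related alpha subunit, had values of 8.43, 8.39, 8.16 and 8.34 on the cocaine arrays and 8.39, 8.37 and 8.55 on the shock arrays, a difference of -0.11 (SE 0.079), or -0.050 without shock array 6. Its lowest value was that of cocaine array 6 and its highest that of shock array 6, and the other 5 lay between 8.34 and 8.43. Glrb, the beta subunit that ties glycine receptors to gephyrin, differed by 0.026 (SE 0.046).

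**Figure D3:**
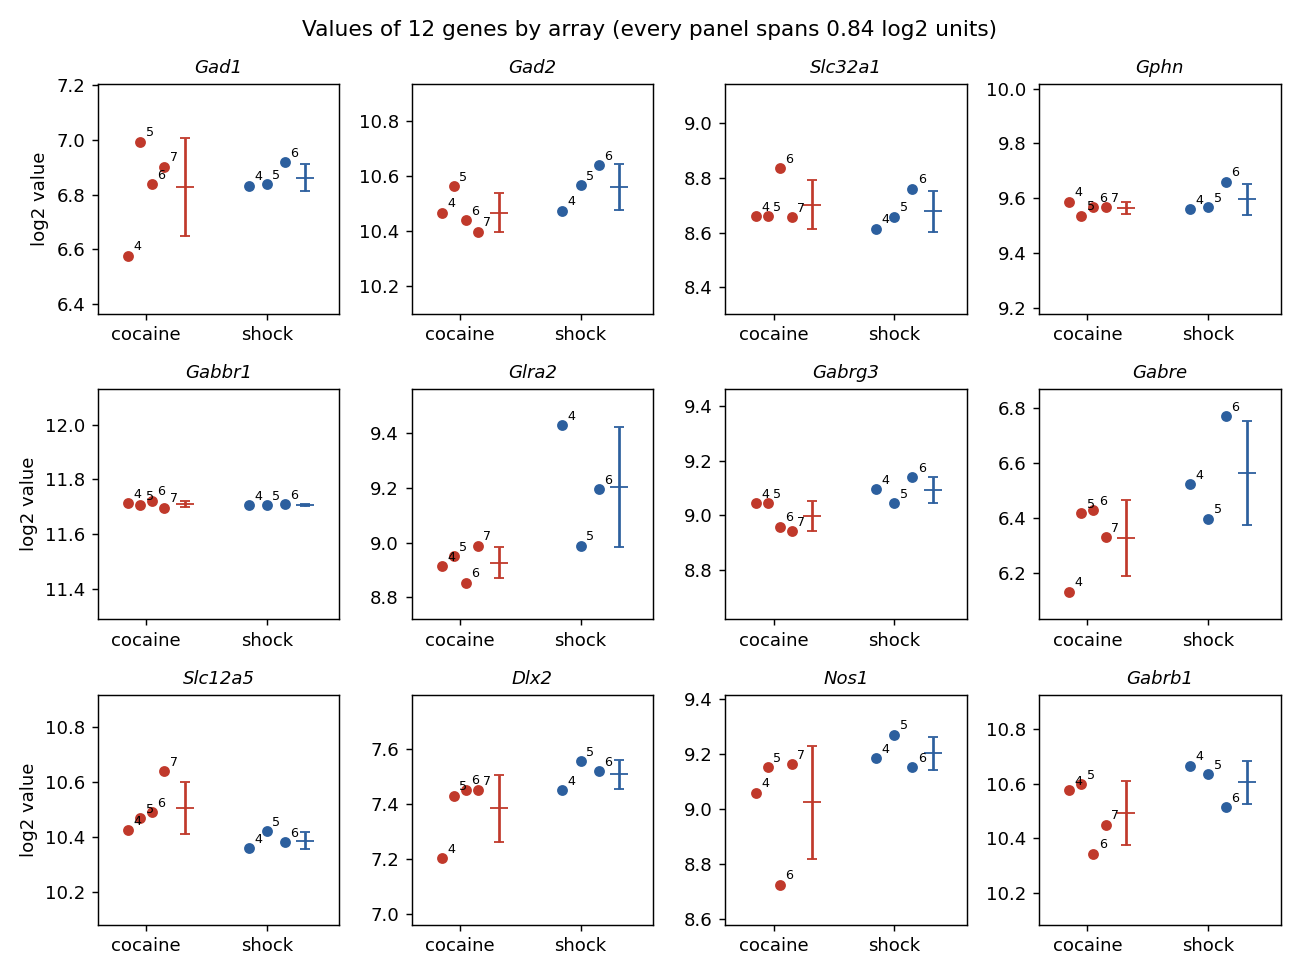
Log2 values of 12 genes by array, with a dot for each array (number as in the titles) and the group mean with its SD at the right of each group. Every panel spans the same 0.84 log2 units, so the tight values of Gabbr1 and Gphn can be set against the wide ones of Gad1, Nos1, Gabre and Glra2.

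The 31 genes were also described array by array through a score, which averages over the genes how far each log2 value lay from the mean of its gene. It was -0.024, 0.0066, -0.044 and -0.010 on cocaine arrays 4 to 7 and 0.032, -0.0025 and 0.042 on the shock arrays. The groups overlapped, at cocaine array 5 and shock array 5. Cocaine array 6 had the lowest value of the 7 arrays for 8 of the 31 genes, and shock array 6 the highest for 8. The score over all genes above the dim level was also lowest on cocaine array 6. It was -0.025 there, and -0.0028 to 0.013 on the other arrays (0.00034 on shock array 6). The 30 members above the dim level scored -0.055 on cocaine array 6. Over all genes, dim ones included, the score was highest on that array, at 0.0079, against -0.0056 to 0.0031 on the others. A lowest score on cocaine array 6 was thus shared with genes above the dim level, though smaller in size there, and not with all genes. The median within-group SD of the 31 genes was 0.093, the same as over all genes (0.093), of which many are dim. For the 30 members above the dim level it was 0.093, against 0.077 over all genes above that level. The same value stood on at least 2 arrays for 17 of the 31 (54.8%), beside 66.9% of all genes.

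Other genes of the pathway did not pass the test either. Of a list of 32 further genes for GABA and glycine transport, receptors, receptor trafficking and chloride control, 25 were measured, and 7 of these were dim. The remaining 7 were not analysed here. No gene of the 25 passed at an adjusted p under 0.05 (limma, smallest 0.938), and 2 of 25 had an unadjusted p under 0.05, beside 3.1% of all genes. Of these 1 was lower and 1 higher in the cocaine group, beside 1.57% and 1.53% of all genes. The mean was lower in the cocaine group for 15 and higher for 10, with a median difference of -0.015.

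The largest differences in this list were those of GABA transporters. Slc6a13, a GABA transporter found mostly in meninges and vessels within the brain, had values of 6.45, 6.68, 6.63 and 6.54 on the cocaine arrays and 6.72, 6.74 and 6.95 on the shock arrays. Its groups did not overlap, and the difference was -0.23 (SE 0.081, limma unadjusted p = 0.0281, adjusted p = 0.938), or -0.15 without shock array 6. Slc6a11, the GABA transporter of astrocytes, had values of 9.69, 10.03, 9.99 and 9.84 on the cocaine arrays and 9.99, 10.16 and 10.07 on the shock arrays. Its groups overlapped, and the difference of -0.18 (SE 0.091, limma unadjusted p = 0.0831) was -0.12 without cocaine array 4.

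The receptor partners in the list went both ways. Lhfpl4, a tetraspanin-like protein that holds GABA-A receptors at the synapse, had values of 8.60, 8.55, 8.68 and 8.69 on the cocaine arrays and 8.42, 8.52 and 8.55 on the shock arrays. Cocaine array 5 and shock array 6 shared an identical value and the other cocaine arrays were higher, with a difference of 0.13 (SE 0.052, limma unadjusted p = 0.0397, adjusted p = 0.938). Shisa7, an auxiliary GABA-A subunit, differed by -0.12, or -0.055 without shock array 4. Nsf, an ATPase of membrane fusion, differed by 0.068 (0.041 without cocaine array 7), and the dim KCTD gene Kctd12b by -0.073.

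Markers of other cells moved across the same arrays, and their part in these results was not tested. All 10 vascular markers had lower means in the cocaine group (Slco1a4 -0.48, Cdh5 -0.30, Flt1 -0.30), and their score ran from -0.36 to 0.029 on the cocaine arrays and from 0.015 to 0.33 on the shock arrays. All 10 astrocyte markers were lower too (Sox9 -0.20, Aqp4 -0.18, Gja1 -0.23), with a score of -0.18 to 0.10 against -0.013 to 0.14. These stand beside Slc6a13, Slc6a11 and Slc12a2, which vascular or glial cells express. No gene of either list was past the adjusted threshold, and 4 of 10 vascular markers and 0 of 10 astrocyte markers had an unadjusted p under 0.05 (limma), beside 3.1% of all genes.

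Among neuronal markers, 12 of 18 measured inhibitory neuron markers had lower means in the cocaine group, with a median of -0.059 (Sst -0.19, Lhx6 -0.12, Tac1 0.14). Tac1 also stands in the striatal list. The dim markers Pvalb and Nkx2-1 were among those with higher means. Their score ran from -0.057 to 0.034 on the cocaine arrays and from -0.024 to 0.11 on the shock arrays, and the highest was that of shock array 6. Gad2 was highest on that array as well, but Gad1 was highest on cocaine array 5 and Slc32a1 on cocaine array 6. Excitatory neuron markers were 4 lower and 5 higher (Slc17a7 0.081, Baiap2 0.087, Emx1 -0.055), with a score of -0.0081 to 0.041 against -0.032 to 0.0067. The 7 measured markers of striatal neurons, most of which use GABA, all had higher means in the cocaine group (Drd1 0.33, Rarb 0.23, Pde10a 0.17), with scores of 0.016 to 0.17 against -0.15 to -0.044. Of these 7, 3 had an unadjusted p under 0.05 (limma) and groups that did not overlap, and 0 passed the adjustment. Over all genes 3.1% had an unadjusted p under 0.05 (limma), and 2.37% had groups that did not overlap. Gad1, Gad2 and Slc32a1, which striatal neurons also express, had differences of -0.035, -0.093 and 0.025 on these arrays.

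The remaining lists were those of other glia, choroid plexus and immediate early genes. Oligodendrocyte markers were lower for 2 of 7 (Olig2 -0.16, Cldn11 0.14, Mobp 0.15), with scores of -0.11 to 0.15 on the cocaine arrays and -0.14 to 0.061 on the shock arrays. Microglia markers were lower for 5 of 8 (Cx3cr1 -0.18, Tmem119 -0.095, C1qb -0.13), with scores of -0.042 to 0.00087 against 0.0041 to 0.056. Choroid plexus markers were lower for 3 of 4 (Ttr -1.13, Kl -0.41, Folr1 -0.17), with scores of -0.65 to 0.32 against -0.27 to 0.67. Immediate early genes were higher for 12 of 12 (Npas4 1.49, Btg2 1.01, Egr4 0.54), and their scores overlapped, from -0.28 to 0.61 on the cocaine arrays and from -0.87 to 0.50 on the shock arrays. Shock array 5 had an immediate early score of 0.50, against -0.77 and -0.87 on the other shock arrays. Its score over the 31 GABA and glycine genes was the lowest of the 3 shock arrays. Among the cocaine arrays the extremes paired the other way. Array 5 was highest there in both the immediate early score (0.61) and that of the 31 genes (0.0066). Cocaine array 6 was lowest in both (-0.28 and -0.044). Whether the 2 scores are linked was not tested.

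**Figure D4:**
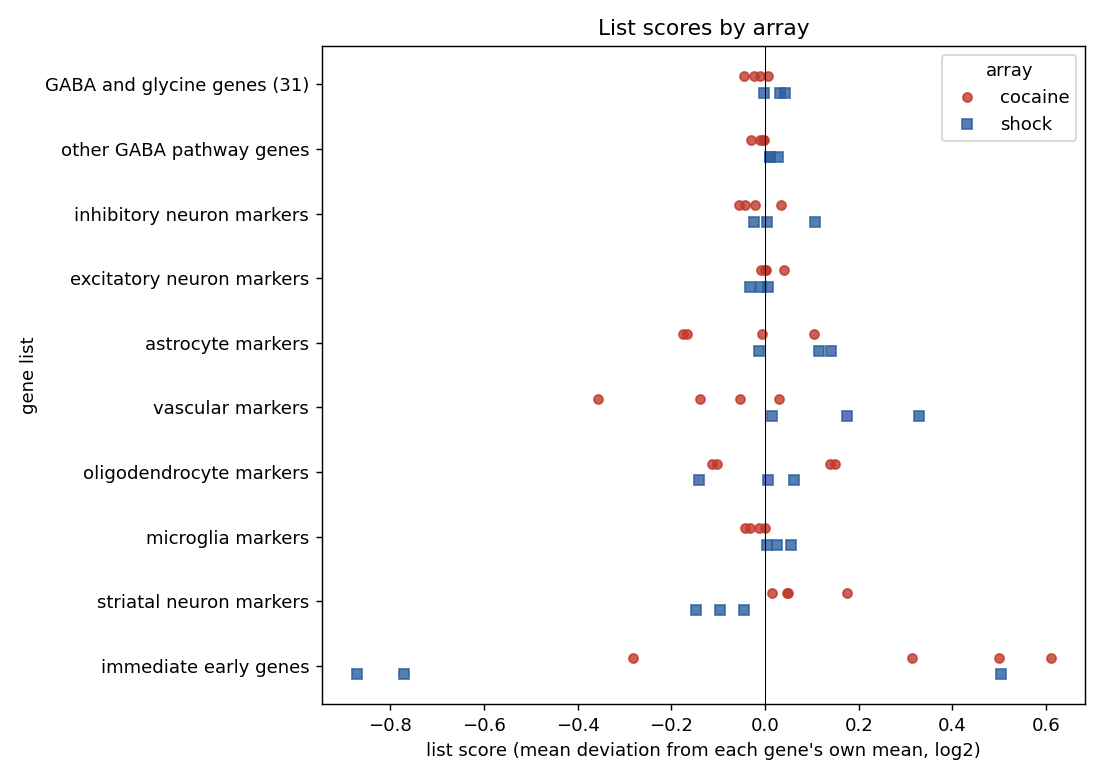
Score of each gene list except choroid plexus (y axis) on each array, the mean signed deviation of its log2 values from the mean of each gene (x axis). Circles are cocaine arrays and squares shock arrays. The GABA and glycine genes lie between -0.044 and 0.042, while immediate early genes range from -0.87 to 0.61.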

How the data were processed

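RNA on GFP-tagged ribosomes of mouse mPFC was measured on 7 one-colour Affymetrix arrays. The deposited log2 values of 41345 probe sets were used as given, a scale read from the values. They were made with Transcriptome Analysis Console, per the submitters' processing notes, while how the values were summarised, normalised and filtered, and any build, is not stated there. The platform annotation gave 1 symbol to 23521 probe sets, several to 1814 and none to 16010, which stay unnamed. All 31 genes had an Entrez identifier and the same symbol in the RefSeq table. The comparison of the groups used limma 3.58.1 (R 4.3.3), a linear fit on all 7 arrays without covariates and two-sided moderated tests, and p-values were adjusted by Benjamini-Hochberg over 22180 genes at 0.05. The scripts were tested on simulated data. Arrays have no read depth, and their number limits the precision.

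The members and lists were chosen with earlier results of these data known. Values by array are given for Gad1, Gad2, Slc32a1, Gphn, Gabbr1, any gene with an unadjusted p under 0.05 or groups that did not overlap, and the 8 of smallest p, and for some others. From the pathway list up to 6 genes of smallest p are named, and from each marker list up to 3, apart from markers named for their brightness. As alternatives, the fit was repeated without each array, after quantile normalization or median centring, without dim genes, with probe sets averaged per gene, with trend and robust moderation, and with the title number as a block.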

Additional observations from a re-analysis of the deposited data

Results flagged for a closer look

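Among the 4 cocaine arrays, Slc32a1 on array 6 was the highest by a gap of 0.9717 of the group's range, and Dlx2 on array 4 was the lowest by a gap of 0.9104. Both pass Dixon's 95% limit of 0.829 for 4 samples. These were 2 of 38 measures, where chance passes about 5% of independent measures, and Slc32a1 had an identical value on cocaine arrays 4 and 5. The 3 shock arrays were not tested this way.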

How the results depend on the processing

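No member and no gene of the pathway list passed limma's adjusted threshold under any of the 13 alternatives. The count of members at an unadjusted p under 0.05 was 1, ranged from 0 to 3 when an array was left out (0 without cocaine array 6, shock array 4 or shock array 6, and 3 without shock array 5), and was 2 with trend and robust moderation. Without cocaine array 4 or 5 the count of 1 was Slc12a5 or Slc12a2 in place of Glra2. The members' median difference ranged from -0.048 to -0.0072 when an array was left out, and was -0.011 after median centring. In the other alternatives it was -0.033 to -0.031. It thus moved there by less than 0.018, the within-group SD of the members' median deviation per array. Leaving out 1 array turned the sign for 14 members, with ranges of -0.0011 to 0.0073 for Gabbr1, -0.0086 to 0.016 for Gabbr2, -0.13 to 0.060 for Gabra2, -0.092 to 0.068 for Gabra5, -0.087 to 0.067 for Gabra6, -0.058 to 0.045 for Gabrb2, -0.067 to 0.029 for Gabrg1, -0.098 to 0.035 for Gabrq, -0.090 to 0.048 for Gad1, -0.0088 to 0.049 for Glrb, -0.049 to 0.0014 for Gphn, -0.13 to 0.050 for Kctd12, -0.043 to 0.082 for Kctd16 and -0.019 to 0.067 for Slc32a1. The sign also turned after quantile normalization for Gabbr1 (-0.0066), Gabbr2 (-0.0022), Gabra6 (-0.070) and Gabrb2 (-0.0038), after median centring for Gabrg1 (0.013) and with the mean of the probe sets for Slc32a1 (-0.010). The cause was not tested.

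Cocaine array 7 has no shock array of its number, so with the title number as a replicate block it adds nothing to the difference, and the estimates equal those without that array. This covers the turned signs of Gabbr2 (-0.0073) and Gabrg1 (0.0072). With the block 0 members had an unadjusted p under 0.05 (Glra2 0.0585, against 0.0438 without array 7). Over all genes 915 had an unadjusted p under 0.05 with the block, against 531 without array 7 and 688 on all arrays, and 0 passed the adjusted threshold in each of these fits. Deviations of same-numbered arrays from their group means correlated at 0.13, 0.064 and 0.16 over all genes for numbers 4, 5 and 6. Each of these 6 arrays correlated best with its own number. Deviations within a group depend on each other, so these are not 6 independent matches. They are a weak hint from the data and not from the design. Arrays give no depth, and the dim gene Gabra6 lies where signal and background cannot be separated here.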
